A study of Mus musculus with 5 samples.

Results

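Long non-coding RNA (lncRNA) loci of mixed class are loci at which the authors' table lists transcripts of more than 1 class. An example is an antisense transcript, which overlaps a gene on the other strand, beside an intergenic one, whose label places it between genes. Such loci were found by collecting the class of every transcript under each locus identifier. The table of mouse testis lncRNAs held 792 such loci among 16356 (4.84%), and their 3939 transcripts made up 11.9% of the 33057 listed. Of the 6274 loci with more than 1 transcript, 12.6% were of mixed class. In 698 loci the classes were antisense and intergenic, in 83 antisense and intronic, in 10 all 3 classes, and in 1 intergenic and intronic.

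The libraries came from testes of male C57BL/6J mice aged 10 weeks, given either saline (2 control libraries) or triptolide into the stomach at a daily 50 µg per kg (3 libraries). Testes were taken at 35 days. Triptolide is a diterpenoid of the vine Tripterygium wilfordii that binds the XPB subunit of the general transcription factor TFIIH. The labels give 6 mice per group and do not say how many mice went into each library. The p-values below therefore speak of the spread among these 5 libraries, which may be technical. Libraries are called control 1 and 2 and triptolide A, B and 3, because 2 triptolide columns share a header. Germ cell types by far outnumber somatic cells in adult testis, and in such bulk RNA fewer cells of a type and less RNA per cell cannot be told apart.

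A lncRNA is a long transcript without a long reading frame, and its class describes only where it lies. Antisense lncRNAs are transcribed from the strand opposite a gene, intronic ones lie inside an intron, and intergenic ones lie between genes. When alternative starts, splicing or ends let 1 locus make both a long transcript that reaches a neighbouring gene and a short one that stops before it, the locus carries 2 classes. Testis is known for an unusually large number of lncRNAs, many of them made in meiotic and post-meiotic germ cells.

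Total expected counts of the lncRNA table ran from 947298 to 1071012 per library, and no pair of libraries of a group agreed within counting noise (chi-square per locus of 4.18 to 6.57). The tissue was checked on the host genes of circular RNAs (circRNAs), in SRPBM, junction reads scaled to library size. Host genes of circRNAs included 13 of 28 meiosis markers, 6 of 22 round spermatid markers and 29 of 41 axoneme genes. They included 0 of 12 Sertoli, 0 of 6 peritubular, 0 of 6 endothelial and 0 of 5 red blood cell markers, 1 of 9 Leydig and 1 of 8 macrophage markers. Summed circRNAs of elongating spermatid markers, which rest on 2 of 17 genes, were 746 and 290 SRPBM in control against 95 to 210 SRPBM in triptolide libraries. The groups overlapped for round spermatid markers (1775 and 1793 SRPBM in control against 1083, 1821 and 1290 in triptolide). They also overlapped for meiosis markers (2934 and 4026 against 3032, 3346 and 2775) and axoneme genes (10342 and 11615 against 9465, 13867 and 8850). The part of the elongating spermatid difference in the results was not tested.

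The starts that produced both classes could be shown where a known transcript began within 50 bases of a RefSeq gene start. Known transcripts with a RefSeq start numbered 1347. Of these, 283 began exactly there and 580 within 50 bases, at 193 of 263 loci. The submitters' notes name the human build hg19, while these starts coincide with the mouse build GRCm38. The 5 promoters below (RefSeq, GRCm38.p6, 250 bases before to 50 after the start, read 5′ to 3′ on the strand of the gene) belong to loci whose counts or class shares are described further on. Capitals mark matches, on either strand, to 4 motifs: TATAAA, the CCAAT box CCAAT, the GC box GGGCGG and the cyclic AMP response element TGACGTCA. These motifs do not overlap each other in the sequences shown. In all 32851 RefSeq promoters of this length they occur in 13.6%, 37.4%, 35.7% and 1.79%.
Malat1, chr19:5802623-5802922, minus strand: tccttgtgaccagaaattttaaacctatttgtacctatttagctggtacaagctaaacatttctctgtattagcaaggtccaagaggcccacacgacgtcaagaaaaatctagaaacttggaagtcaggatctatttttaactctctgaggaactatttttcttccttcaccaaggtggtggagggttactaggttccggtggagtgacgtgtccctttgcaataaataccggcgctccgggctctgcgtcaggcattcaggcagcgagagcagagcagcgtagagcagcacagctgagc
4933407K13Rik, chrX:75764650-75764949, minus strand: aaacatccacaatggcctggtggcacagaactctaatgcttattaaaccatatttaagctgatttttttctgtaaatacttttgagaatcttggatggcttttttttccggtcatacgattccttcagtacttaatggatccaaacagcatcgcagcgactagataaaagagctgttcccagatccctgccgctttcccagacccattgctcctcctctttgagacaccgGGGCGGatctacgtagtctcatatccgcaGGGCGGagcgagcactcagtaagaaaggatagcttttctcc
1110002L01Rik, chr12:3426698-3426997, minus strand: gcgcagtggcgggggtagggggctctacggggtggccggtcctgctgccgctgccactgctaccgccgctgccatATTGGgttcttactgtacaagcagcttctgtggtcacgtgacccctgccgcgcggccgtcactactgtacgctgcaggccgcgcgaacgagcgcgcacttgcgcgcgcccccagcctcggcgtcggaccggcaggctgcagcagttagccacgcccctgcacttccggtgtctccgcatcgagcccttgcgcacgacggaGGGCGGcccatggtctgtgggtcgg
8430429K09Rik, chr11:3452187-3452486, plus strand: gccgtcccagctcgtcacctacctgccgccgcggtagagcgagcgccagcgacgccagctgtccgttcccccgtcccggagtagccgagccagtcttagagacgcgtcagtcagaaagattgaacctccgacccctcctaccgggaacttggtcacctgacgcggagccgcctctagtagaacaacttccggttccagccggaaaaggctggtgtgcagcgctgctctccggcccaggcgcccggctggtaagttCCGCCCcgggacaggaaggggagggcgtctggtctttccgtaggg
4933433G15Rik, chr9:75409934-75410233, plus strand: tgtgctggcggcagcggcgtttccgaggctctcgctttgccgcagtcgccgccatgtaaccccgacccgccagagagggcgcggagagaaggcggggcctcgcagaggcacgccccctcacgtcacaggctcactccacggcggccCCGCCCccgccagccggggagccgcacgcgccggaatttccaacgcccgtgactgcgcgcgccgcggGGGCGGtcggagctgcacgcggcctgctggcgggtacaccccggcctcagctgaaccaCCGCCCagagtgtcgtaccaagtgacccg

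Except for Malat1, each of these starts gave rise to transcripts of both classes. From the 4933433G15Rik start began 3 antisense and 20 intergenic transcripts, all within 50 bases. From the 8430429K09Rik start began 1 antisense and 3 intergenic transcripts, and from the starts of 4933407K13Rik and 1110002L01Rik 1 antisense and 2 intergenic transcripts each. At Malat1 only the antisense transcript began at the RefSeq start, 1 base away. The GC box was found in 4 of the 5 windows, the CCAAT box in 1, and these letters of the other motifs in none of the 5.

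Across the 708 loci with both antisense and intergenic transcripts, some transcripts of the 2 classes shared an end of the gene. They began at the same base in 152 loci and within 50 bases in 242, and they ended at the same base in 313. The longest antisense transcript was the longer of the 2 in 657 of the 708. Antisense transcripts spanned a median of 19993.5 bases with 4 exons, intergenic ones 7350 bases with 3 exons, and intronic ones 4467 bases with 2 exons. Since a longer transcript has more room to overlap a gene, span is not independent of the class. A mixed locus held a median of 4 transcripts and at most 41, and 191 had exactly 2. Loci of 1 class with several transcripts held a median of 3. Their median span was 11106 bases, against 23400.5 bases for mixed loci.

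The symbol of a locus means different things for known and new transcripts. Of the mixed loci, 354 held only known transcripts, 369 only transcripts listed as new, and 69 both. All 736 known antisense transcripts with a RefSeq strand lay on the strand of the gene that names them, so the symbol is that of the lncRNA gene itself. All 569 new antisense transcripts with a RefSeq strand lay on the opposite strand, so the symbol is that of the gene overlapped. Thus Adk, Rad21 or Abcg2 below name the lncRNA locus that runs against that gene, not its mRNA. Of 863 new intergenic transcripts 35 also carried a symbol, and all 29 with a RefSeq strand lay on the strand opposite that gene. Some transcripts listed as intergenic thus carry the name of a gene on the other strand. New antisense transcripts were found at 398 mixed loci. RefSeq held a partner for 351, which was protein-coding at 295, a pseudogene at 33, a small RNA gene at 19 and another lncRNA at 9. Of the 307 protein-coding partners, 94 (30.6%) were also hosts of a circRNA, as were 14.5% of the 21900 protein-coding RefSeq genes, a description of these tables with no test. Reads of a lncRNA and of its partner on the other strand may be mixed, because no source used here gives the strand setting of the counting.

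Mixed loci took 13.7% of the lncRNA counts in both control libraries and 14.3%, 13.9% and 14.3% in triptolide A, B and 3. All 3 triptolide values lay above both control values, by less than 1 percentage point, and the difference was not tested. These counts include Malat1, with 1083 and 1685 antisense counts in control against 6572, 4872 and 4864 in triptolide. Its intergenic counts were 1332 and 1554 in control against 4484, 3658 and 4143 in triptolide. Shares without Malat1 were not computed, so the difference says nothing of mixed loci as a group. Within them, antisense transcripts took 49.8% and 50.9% of counts in control against 50.2%, 50.1% and 50.3% in triptolide. Intergenic transcripts took 45.4% and 44.2% in control against 44.9% to 45.2% in triptolide. Intronic transcripts took 4.75% and 4.94% in control against 4.84%, 5.03% and 4.47% in triptolide. The groups overlapped for each of the 3 classes. In loci of 1 class, antisense transcripts took 29.4% to 30.5% and intergenic ones 65.7% to 67.0%. Counts are not per length, so these shares describe reads and not molecules.

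One class usually carried most of a mixed locus. With 773 loci having any count, antisense led in 441, intergenic in 294 and intronic in 38. The leading class held a median of 80.8% of the counts. It held over 95% in 162 loci and all of them in 61, while in 610 loci at least 2 classes each held 5% or more. The median locus level was 51.3 CPM, that is, counts per 1000000 lncRNA counts of the library, against 4.51 over all lncRNA loci and 26.1 over loci of 1 class with several transcripts. These levels are per locus and not per length. The 8 highest loci held 23.2% of all counts in mixed loci.

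Those 8 loci show how unequal the classes were. The locus against Mroh4 stood at 5639 and 6696 CPM in control against 6889, 5985 and 7806 CPM in triptolide, and its antisense class held 96.6% to 98.7% of counts. The locus 1700027A15Rik stood at 5596 and 4382 CPM in control against 5320, 6447 and 4730 CPM in triptolide, nearly all of it intergenic (99.7% to 100%). Gm904, also intergenic by 97.2% to 98.8%, and Gm9999, by at least 92.4%, had overlapping groups as well. At 4930515L19Rik on the X chromosome, with 22 transcripts, the antisense share was 17.5% and 13.2% in control against 19.9%, 13.7% and 22.8% in triptolide. The locus against Vmn2r111, a vomeronasal receptor gene, divided more evenly, with an antisense share of 65.7% to 78.9%. Malat1 and a chromosome 5 locus of 41 transcripts complete the 8 and are described below.

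As sums over all their transcripts, few mixed loci passed the test of triptolide against control. Of 651 loci with enough counts, 45 passed edgeR's quasi-likelihood test at an adjusted p under 0.05 (6.91%), beside 7.27% of all 6888 lncRNA loci tested. Of these, 31 were higher (4.76%, beside 5.01% of all loci) and 14 lower (2.15%, beside 2.26%). The groups did not overlap at 44 of the 45, which adds no support, since the test used the same values. The share without overlap over all loci is not given here. The exception was the locus against Cacul1. The median log2 fold change was -0.02 over mixed loci and 0.00 over all. The untested 141 loci included 19 with a count of 0 in every library. The share called in mixed loci was thus close to the background. An unadjusted p under 0.05 in the same edgeR test was found at 20.4% of tested mixed loci, beside 21.7% of all tested loci. Calls fell on 11 higher and 7 lower of 261 tested loci of known transcripts, 16 and 6 of 323 of new ones, and 4 and 1 of 67 holding both. The number called dropped to 21 when control 1 was left out, to 19 for triptolide A and to 24 for triptolide 3. DESeq2 called 29.

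**Figure D1:**
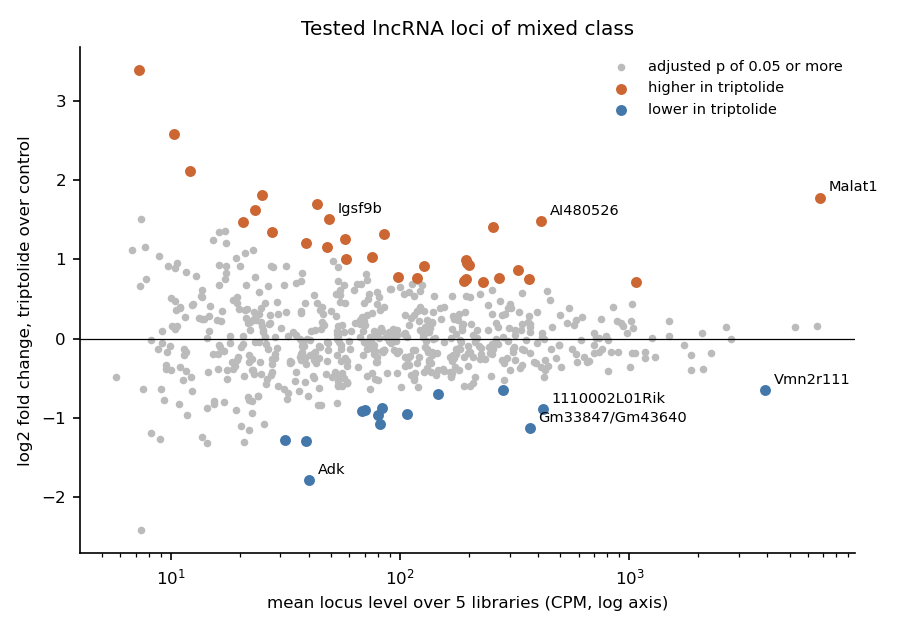
Each of the 651 tested loci by its mean level over 5 libraries (CPM, log axis) and its log2 fold change, triptolide over control; colours mark the 31 loci called higher and the 14 called lower. Malat1 sits at the right edge with a log2 fold change of 1.78.

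Malat1 RNA, an abundant nuclear RNA of the speckles that hold splicing factors, rose with the smallest p of all mixed loci. The 2 deposited transcripts of the locus do not overlap: the intergenic one covers chr19:5795691-5797464 and the antisense one chr19:5801916-5802671, both on the minus strand, at the far and near ends from the start shown above. The antisense transcript had 1083 and 1685 counts in control against 6572, 4872 and 4864 in triptolide. The intergenic transcript had 1332 and 1554 counts in control against 4484, 3658 and 4143 in triptolide. Every triptolide library lay above both controls in each class. The locus sum rose 3.44-fold (log2 fold change 1.78 ± 0.18, SE, edgeR adjusted p = 1.83e-07, n = 2 and 3). The antisense class rose by 2.02 ± 0.22 and the intergenic class by 1.54 ± 0.18 on the log2 scale. The antisense share was 44.8% and 52.0% in control against 59.4%, 57.1% and 54.0% in triptolide, a shift that did not pass the test (adjusted p = 0.617). Every transcript of the table has at least 2 exons, so no unspliced Malat1 transcript is listed. Reads of unspliced Malat1 RNA may be counted in the 2 listed transcripts, and spliced and unspliced RNA were not told apart.

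Among the other large rises, AI480526 on chromosome 5, a known lncRNA locus of 14 transcripts, stood at 230 and 169 CPM in control against 554, 525 and 585 CPM in triptolide. All 3 triptolide libraries exceeded both controls, a condition of the choice of this locus (log2 fold change 1.48 ± 0.20, edgeR adjusted p = 1.2e-05). Its 13 intergenic transcripts rose from 194 and 170 counts to 503, 526 and 580 counts (log2 fold change of the class 1.58). The antisense transcript had 28.3 and 11.4 counts in control against 22.2, 30.5 and 22.0 in triptolide, and did not pass. The difference between the classes did not pass either (adjusted p = 0.24). An intergenic transcript of 7 exons and 8231 bases had 0 and 4.3 counts in control against 88.2, 136.7 and 115.2 in triptolide, though isoform usage at the locus did not pass (adjusted p = 0.12).

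The locus against Ankrd9, a gene for an ankyrin repeat protein, stood at 121 and 133 CPM in control against 352, 323 and 341 CPM in triptolide. It rose by 1.41 ± 0.20 on the log2 scale (edgeR adjusted p = 3.15e-05), with 95.9% to 100% of counts in its intergenic class. At 4933407K13Rik on the X chromosome the sum stood at 112 and 130 CPM in control against 247, 221 and 257 CPM in triptolide (means of 121 ± 12.6 and 242 ± 18.9 CPM, SD, n = 2 and 3, edgeR adjusted p = 0.00265). There the antisense class rose, from 53.1 and 64.7 counts to 156, 171 and 165 counts. Of its antisense transcripts, the one that begins at the start shown above had 0 and 0 counts in control against 28.7, 6.1 and 73.5 in triptolide, and one that begins inside the gene at base 75731386 had 21.4 and 38.4 against 117, 153 and 57.4. Its intergenic class had 54.9 and 74.3 counts in control against 78.3, 62.3 and 99.9 in triptolide. The antisense share of the locus was 49.1% and 46.6% in control against 66.5%, 73.3% and 62.3% in triptolide, without overlap, but the shift did not pass (adjusted p = 0.17). Without control 1 the call on the 4933407K13Rik sum was lost (adjusted p = 0.053).

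The loci against Igsf9b, Gramd4 and Abcg2 also rose. The locus against Igsf9b, a synaptic adhesion protein, stood at 23.8 and 22.4 CPM in control against 81.3, 61.4 and 55.4 CPM in triptolide (log2 fold change 1.51 ± 0.32, edgeR adjusted p = 0.00311). Its intergenic class held 78.5% to 95.7% of counts. The Igsf9b antisense transcript had 1 and 2 counts in control against 13, 14 and 7 in triptolide, and did not pass (edgeR adjusted p = 0.082). The locus against Gramd4 stood at 33.2 and 55.1 CPM in control against 135, 91.6 and 108 CPM in triptolide (log2 fold change 1.33 ± 0.28, adjusted p = 0.00283), and its antisense share was 64.4% to 71.9% throughout. The locus against Abcg2, an efflux transporter of the plasma membrane, stood at 135 and 116 CPM in control against 286, 228 and 215 CPM in triptolide (log2 fold change 0.96 ± 0.21, adjusted p = 0.00454). At each of these 3 loci the groups were separate, which was a condition of their choice. Gm24634 was also higher, at 26.9 and 35.5 CPM in control against 76.0, 71.8 and 77.7 CPM in triptolide (log2 fold change 1.26 ± 0.29, adjusted p = 0.00659). Without control 1 the calls on Gramd4 (adjusted p = 0.073) and Gm24634 (adjusted p = 0.096) were lost, and without triptolide A that on Abcg2 (adjusted p = 0.06).

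The largest fall was at the locus against Adk, the gene of adenosine kinase, which phosphorylates adenosine. It stood at 83.9 and 56.0 CPM in control against 16.9, 17 and 26.2 CPM in triptolide, well below both controls (log2 fold change -1.79 ± 0.32, edgeR adjusted p = 7.5e-04). Its 2 transcripts begin at the same base, 21453886 of chromosome 14, on the minus strand. The intergenic one had 10.3 and 2.2 counts in control against 0 in each triptolide library, too few for a test. The antisense one fell from 70.7 and 57.8 counts to 16, 18 and 27.

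Loci against Rad21, a subunit of cohesin, and Gpam, an acyltransferase of triglyceride synthesis, were lower too. The Rad21 locus stood at 111 and 128 CPM in control against 63.3, 45.4 and 60.2 CPM in triptolide (log2 fold change -1.08 ± 0.25, edgeR adjusted p = 0.0056). Its antisense transcript fell from 54.8 and 54.6 counts to 23.0, 13.5 and 12.3. Its intergenic class, at 52.3 and 82.5 counts in control against 37.0, 34.5 and 49.7 in triptolide, did not pass. The Gpam locus stood at 155 and 148 CPM in control against 95, 55.7 and 82.6 CPM in triptolide (log2 fold change -0.96 ± 0.24, adjusted p = 0.0106). Its 2 transcripts begin at bases 55099432 and 55099517 of chromosome 19 and end at the same base. The counts were placed differently in every triptolide library: the antisense share was 25.8% and 25.3% in control against 100%, 54.9% and 0% in triptolide A, B and 3. Without control 2 the call on Rad21 was lost (adjusted p = 0.059).

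Further falls were at 1110002L01Rik and Gm43356/Gm43357, whose transcripts are all known, and at 4921515E04Rik, whose intergenic transcripts are new. The locus 1110002L01Rik stood at 552 and 607 CPM in control against 321, 272 and 340 CPM in triptolide (log2 fold change -0.90 ± 0.18, edgeR adjusted p = 0.00222). Its antisense class fell from 512 and 610 counts to 283, 265 and 317. Its intergenic class, at 21.5 and 39.8 counts in control against 20.8, 23.0 and 33.1 in triptolide, overlapped, and the shift of class share did not pass (adjusted p = 0.51). The locus 4921515E04Rik stood at 119 and 108 CPM in control against 52.8, 75.6 and 45.7 CPM in triptolide, and Gm43356/Gm43357 at 66.3 and 55.1 against 14.8, 26.5 and 32.1 CPM. Both calls were lost without control 1 (adjusted p = 0.082 and 0.065) and without triptolide A (0.076 and 0.11), the first also without triptolide 3 (0.069). Vmn2r111, the most abundant locus to fall, stood at 4120 and 5888 CPM in control against 3292, 2647 and 3608 CPM in triptolide. The Vmn2r111 call was lost without control 2 (adjusted p = 0.36, log2 fold change -0.33), triptolide A (0.062) or triptolide B (0.078).

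**Figure D2:**
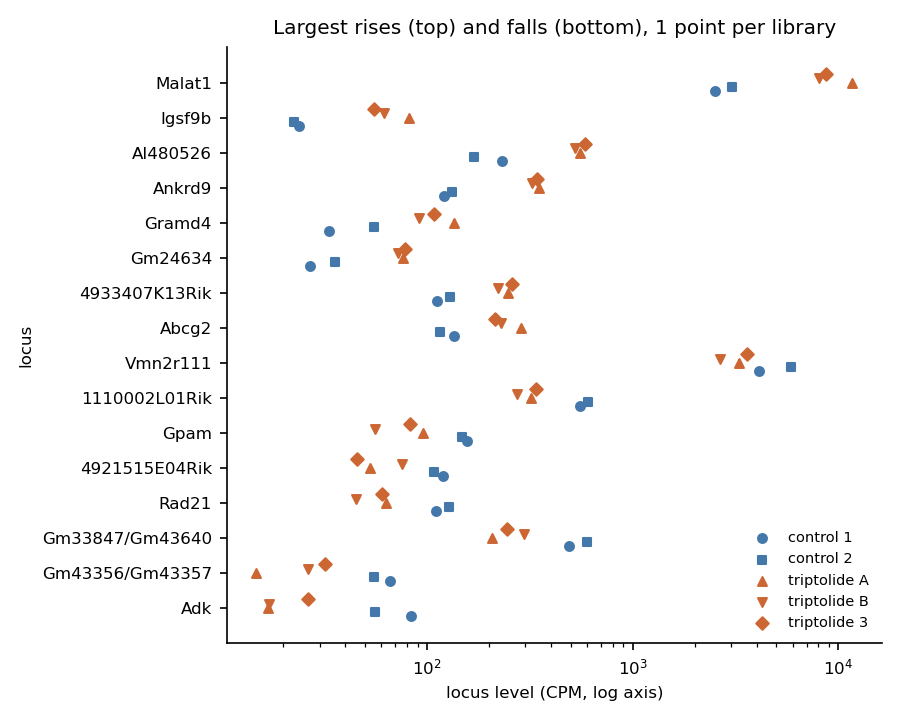
Level of the 8 rises and 8 falls of smallest p in each library (CPM, log axis), with loci ordered by log2 fold change and 1 point per library. The 16 loci were chosen among those without overlap between groups, so the gap between triptolide and control points follows from the choice.

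One fall on chromosome 5 involves a transcript whose counts are repeated at a neighbouring locus. The locus Gm33847/Gm43640 stood at 492 and 596 CPM in control against 208, 297 and 244 CPM in triptolide (log2 fold change -1.12 ± 0.19, edgeR adjusted p = 3.45e-04). An intergenic transcript of Gm33847 had 90.81 and 193.58 counts in control against 3.13, 0 and 0 in triptolide. A transcript of 4930558F17Rik, in the neighbouring mixed locus of 41 transcripts, has the same 5 values to the second decimal. Their spans are 16657 and 16656 bases, so the values of both are uncertain. The locus sum of Gm33847/Gm43640 was still called when such transcripts were left out. Identical counts in all libraries were found for 55 transcripts of the table with a summed count of at least 20, of which 5 lie in mixed loci.

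Tested as separate units, few classes of mixed loci passed. Of 1003 class units at mixed loci, 39 passed (3.89%), beside 4.82% of all 7240 units. They were 26 higher, beside 3.49% of all units, and 13 lower, beside 1.33%. Among antisense units 9 rose and 8 fell of 515, among intergenic ones 15 rose and 5 fell of 441, and among intronic ones 2 of 47 rose. Of 374 loci with at least 2 classes tested, 1 had each of its tested classes called, namely Malat1, and 32 had 1 called. Classes were called in opposite directions at 0 loci. All tested classes changed in the same direction, without regard to significance, at 206 of the 374. At most of the 374 no class was called, so 206 does not show how the classes of a changing locus move. In 340 loci with antisense and intergenic units the antisense log2 fold change was the higher in 164. The median difference was -0.03 and the median absolute difference 0.46. At 14 loci a class was called and the sum was not, and at 21 called loci no class was. Without triptolide A 19 units were called, without triptolide 3 there were 14, and with no filter on low counts 90.

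**Figure D3:**
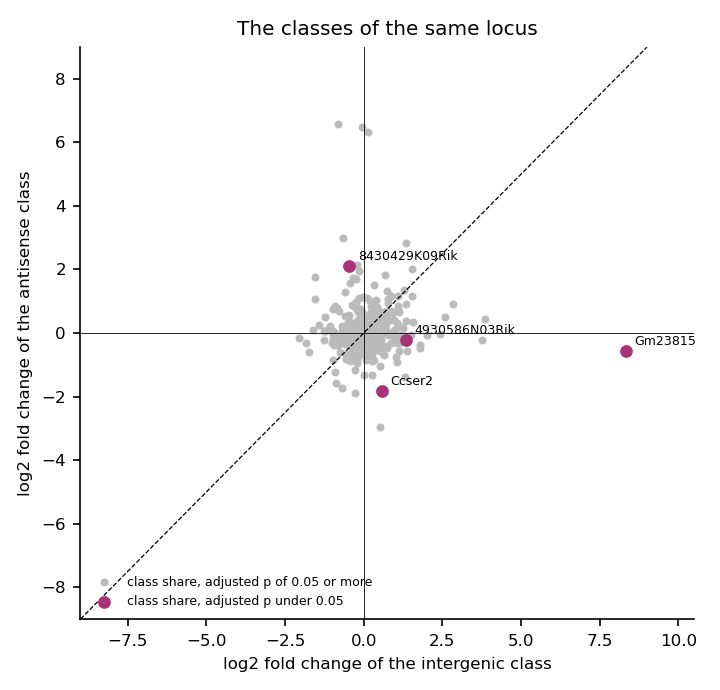
Log2 fold change of the antisense class against that of the intergenic class in 340 loci, with the line of equal change dashed; the 4 loci called for a shift in class share are coloured and named. Most loci lie near the origin, and points beyond 6 on either axis are fitted values for a class with a count of 0 in both controls and are no measure of size.

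A shift of class share within a locus was called at 4 of 374 loci (1.07%, which is also the background, since only mixed loci can be tested), and 56 had an unadjusted p under 0.05. The number called was 2 without control 1 or triptolide B, 1 without triptolide A or triptolide 3, and 0 without control 2 (63 at an unadjusted p under 0.05), while limma-voom called 13. At Gm23815, a small nuclear RNA gene overlapped by new transcripts on chromosome 7, the intergenic class had 0 and 0 counts in control against 62.0, 23.3 and 32.5 in triptolide. Its antisense class had 194 and 232 counts in control against 114, 145 and 164 in triptolide. The intergenic share was thus 0% in both controls and 35.2%, 13.8% and 16.6% in triptolide (diffSpliceDGE of edgeR, adjusted p = 0.0086). The sum at this locus did not pass (adjusted p = 0.559). Leaving out control 1 or control 2 ended the call on Gm23815 (adjusted p = 0.051 and 0.096).

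At the locus against Ccser2 the antisense class fell from 118 and 56.9 counts to 25.2, 27.6 and 20.6. Its intergenic class had 90.2 and 108 counts in control against 112, 152 and 175 in triptolide. The intergenic share was 43.3% and 65.5% in control against 81.6%, 84.6% and 89.5% in triptolide (edgeR adjusted p = 0.044). At 8430429K09Rik the antisense share was small, 1.3% and 1.5% in control against 8.3%, 6.1% and 9.0% in triptolide (adjusted p = 0.044), on 5.3 and 6.0 against 23.9, 17.7 and 29.5 counts. At 4930586N03Rik on chromosome 13 the intergenic share was 23.0% and 22.6% in control against 49.6%, 39.9% and 49.4% in triptolide (adjusted p = 0.044). Most antisense counts at 8430429K09Rik (4.2 and 6.0 in control against 19.8, 14.5 and 26.6 in triptolide) came from a transcript that begins at base 3452028, upstream of the window shown above. In each of these 3 loci the groups did not overlap, which adds no support, since the test used the same values. Every one of these 3 calls was lost when any 1 of the 5 libraries was left out, with adjusted p from 0.051 to 0.27.

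The next 4 loci by p, among those with a mean of at least 10 counts in both leading classes, did not pass. Their groups were separate, which adds no support, since they were chosen by a p from the same values. The locus against the carboxypeptidase genes Cpa4 and Cpa5 had an intergenic share of 13.3% and 14.5% in control against 29.6%, 26.4% and 31.0% in triptolide (edgeR adjusted p = 0.067). At XLOC_058371, a locus of 3 classes with no symbol, it was 0% and 3.7% in control against 15.4%, 18.1% and 41.4% in triptolide (adjusted p = 0.07). At 4933433G15Rik the antisense share was 2.9% and 3.7% in control against 5.4%, 7.3% and 9.7% in triptolide (adjusted p = 0.081). At Gm29087 the intergenic share was 12.0% and 9.2% in control against 23.7%, 21.2% and 29.1% in triptolide (adjusted p = 0.081). With limma-voom in place of edgeR the shifts at Cpa4/Cpa5 (adjusted p = 0.023), 4933433G15Rik (0.029) and Gm29087 (0.026) passed.

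**Figure D4:**
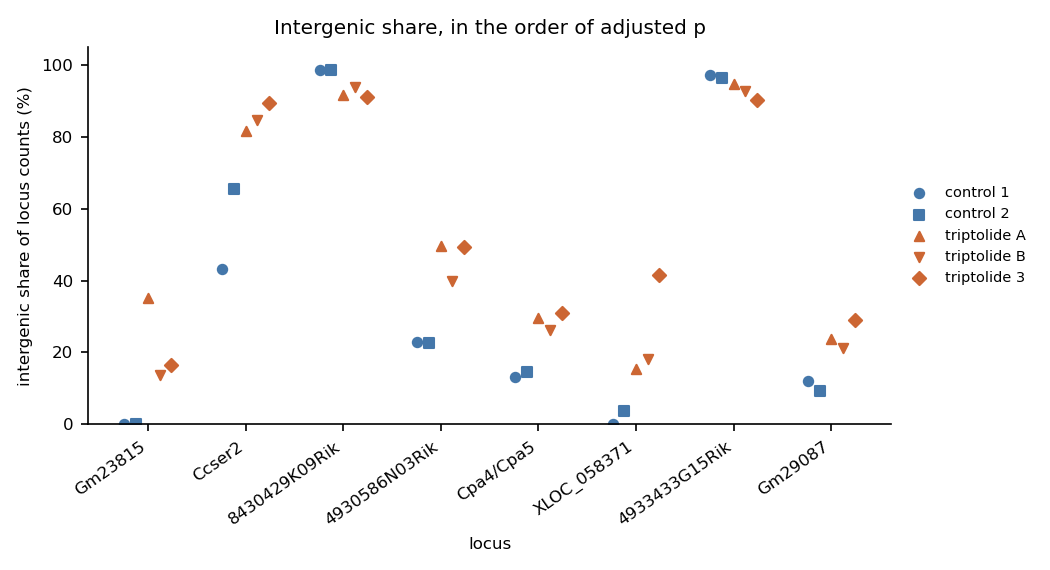
Share of the locus counts in the intergenic class (%) in each library, for the 8 loci of smallest p with a mean of at least 10 counts in both leading classes, in the order of adjusted p; blue marks control and orange triptolide. The first 4 passed the test, with 8430429K09Rik lower and the other 3 higher in triptolide.

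Isoform usage, the share of each transcript in its locus, was called at 6 of 455 mixed loci (1.32%), beside 0.948% of 2847 loci of the table. It was called at 2 loci without control 1, control 2 or triptolide A, and at 0 by limma-voom (41 at an unadjusted p under 0.05). At 1110002L01Rik, whose sum fell, an antisense transcript of 4 exons had 0 and 0 counts in control against 13.5, 39.9 and 39.6 in triptolide. The 3-exon transcript over the same 26434 bases had 182 and 275 counts in control against 94.2, 55.8 and 107 in triptolide. Both begin at base 3427767, upstream of the window shown above. A short antisense transcript of 5576 bases took 5.2% and 11.7% of the locus in control against 17.1%, 17.5% and 20.3% in triptolide (diffSpliceDGE of edgeR, adjusted p = 0.0061). At 4930509G22Rik a 4-exon antisense transcript of 15889 bases had 96.0 and 49.4 counts in control against 0 in all 3 triptolide libraries (adjusted p = 0.035). A nearly identical one of 15895 bases had 12.0 and 112 counts in control against 118, 103 and 65.0 in triptolide, where the groups overlapped. The call on isoform usage at 1110002L01Rik was lost without control 1 (adjusted p = 0.12) or control 2 (0.062). The call on 4930509G22Rik was lost without control 1 (0.17) and without any 1 triptolide library (0.12 to 0.16).

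**Figure D5:**
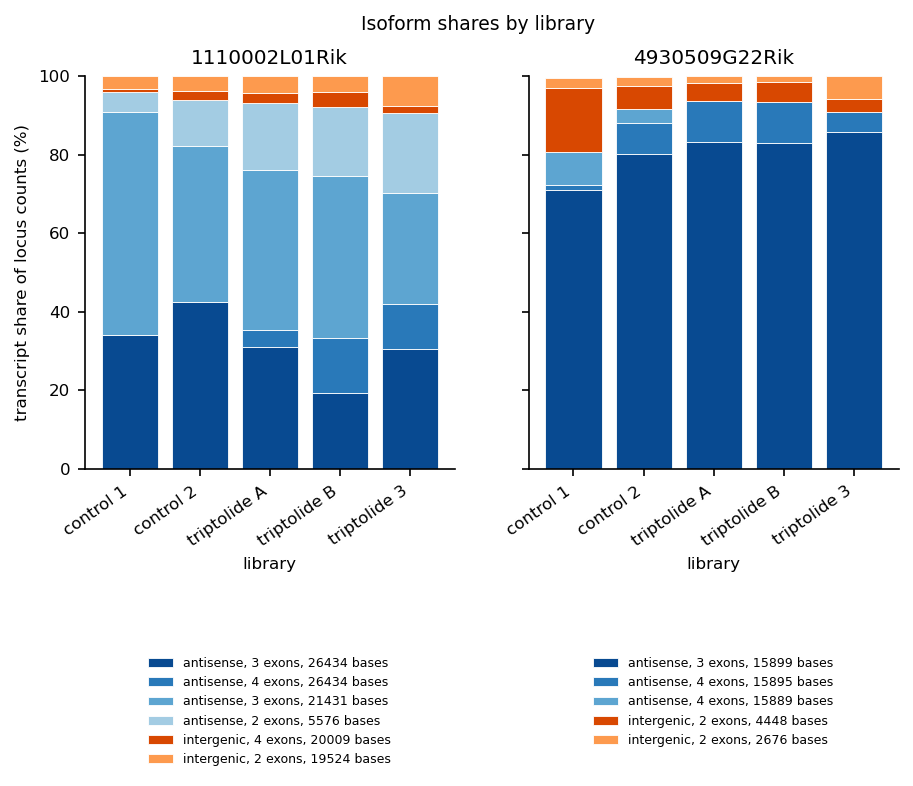
Share of the locus counts (%) held by each listed transcript in each library, with antisense transcripts in blue and intergenic ones in orange; transcripts under 2% of the locus and under 50 counts in all are not drawn. The 4-exon transcript of 26434 bases appears in the 3 triptolide libraries of 1110002L01Rik, and that of 15889 bases in the 2 controls of 4930509G22Rik.

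At the locus against Plbd1, a gene of a lysosomal phospholipase-like protein, an antisense transcript of 9888 bases had 0 and 0 counts in control against 33.3, 16.9 and 33.2 in triptolide (edgeR adjusted p = 0.017). The transcript of 9926 bases beside it had 21.0 and 23.0 counts in control against 13, 24.1 and 13.7 in triptolide. At Gm25281 a 3-exon antisense transcript had 0 and 0 counts in control against 17.7, 16.9 and 17.3 in triptolide, and a second over the same 14866 bases had 0 and 5.0 against 0, 16.2 and 0 (adjusted p = 0.019). The call on Plbd1 was lost without control 1, control 2, triptolide A or triptolide 3 (adjusted p from 0.093 to 0.12). The call on Gm25281 was lost without any 1 library (0.054 to 0.57). The remaining calls, on Gm33847/Gm43640 and on the locus of 41 transcripts, rested on the transcripts of identical counts: without them their adjusted p was 0.7 and 0.72. The call on the former was also lost without control 1, control 2, triptolide A or triptolide 3 (0.082 to 0.3), and that on the latter without control 2 (0.087).

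That locus, on the minus strand at chr5:11022260-11415493, holds 19 antisense, 8 intergenic and 14 intronic transcripts of 8 gene symbols, among them Gm32554 and Gm33093. Its sum was 2501 and 2371 CPM in control against 1991, 1807 and 1776 CPM in triptolide (log2 fold change -0.39 ± 0.16, edgeR adjusted p = 0.152). One antisense transcript of Gm32554, with 5 exons over 72044 bases, held 31.8% and 28.0% of counts in control against 31.2%, 39.6% and 33.1% in triptolide. The antisense class held 71.8% to 78.7%. The intronic class held 8.7% and 8.8% in control against 11.3%, 10.3% and 10.3% in triptolide, and the shift of shares did not pass (adjusted p = 0.31).

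Other loci of 3 classes differed in their leading class. At 1700023H06Rik/Gm4211 on chromosome 13 the intronic transcripts held 55.0% and 68.1% in control against 67.7%, 59.9% and 67.3% in triptolide. At 1700066O22Rik/4930511M06Rik the intergenic class held 33.1% to 44.5%. Intronic transcripts there held 38.5% and 44.2% in control against 34.0%, 33.4% and 25.1% in triptolide, where the groups did not overlap but the shift did not pass (adjusted p = 0.34). At 4932443L11Rik the antisense class led with 72.4% to 92.3%. Among loci with many transcripts, Sptssa (24 transcripts) was intergenic by 89.3% to 100%, while 4930556M19Rik (23 transcripts) divided into 34.3% to 51.8% antisense and the rest intergenic.

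Which transcript led a locus often varied between libraries of the same group. Of 340 mixed loci with at least 50 counts in every library, 190 (55.9%) had the same leading transcript in all 5. In loci of 1 class this was 912 of 1590 (57.4%). The leading transcript was the same within each group and different between them at 4 mixed loci (1.18%), beside 2.58% of loci of 1 class. These were the loci against Wif1, of Gm15738/Mir365-1/Mrtfb, of Gm43358/Gm6455 and 1700082M22Rik. Across the 340 loci the leading transcript held a median of 48.3% of the counts, and in loci of 1 class 55.9%.

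The locus Gm15738/Mir365-1/Mrtfb shows an antisense class over a microRNA gene. It lies on the minus strand at chr16:13378593-13469463, and 5 of its 15 transcripts span Mir365-1, which lies on the plus strand. The mature microRNAs of that gene (RefSeq, GRCm38.p6) are shown to identify that gene. Whether an exon of these transcripts covers them was not tested, since the table gives spans and no exon positions. Capitals mark the seed, bases 2 to 8.
mmu-miR-365-1-5p, chr16:13453855-13453877: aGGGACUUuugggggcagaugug
mmu-miR-365-3p, chr16:13453895-13453916: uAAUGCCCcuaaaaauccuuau

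The sum of that locus was 271 and 247 CPM in control against 421, 440 and 451 CPM in triptolide, all 3 above both controls. It rose by 0.76 ± 0.19 on the log2 scale (edgeR adjusted p = 0.0102). The antisense class of the locus had a log2 fold change of -0.16 and its intergenic class 1.08, so the rise was not in the antisense class. The shift of class share did not pass (diffSpliceDGE adjusted p = 0.12). The call was lost without control 1 (adjusted p = 0.053), control 2 (0.065) or triptolide A (0.053). The deposited tables hold no count of the microRNA itself that was analysed here. Other microRNA genes overlapped by new antisense transcripts were Mir1945 and Mir6378, at loci with group means of 28.1 to 45.8 CPM that did not pass, and Mir6412, at a locus of at most 4 counts in any library.

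Mixed loci with symbols in the gene lists were 10, all tested, with a median log2 fold change of 0.24 beside 0.00 over all loci. Over all tested lncRNA loci 5.01% were called higher, a share that 10 loci are too few to be set against. Of the 10 loci, 2 rose and the other 8 did not pass. Malat1 was 1 of the 2. The other, Wt1os, the lncRNA antisense to the Sertoli cell and podocyte transcription factor gene Wt1, stood at 79.8 and 57.0 CPM in control against 130, 117 and 103 CPM in triptolide (log2 fold change 0.78 ± 0.24, edgeR adjusted p = 0.0487). Its antisense class held 93.5% to 99.2%. The Wt1os call was lost without any 1 library (adjusted p from 0.051 to 0.31) and with DESeq2 (0.097). The 12 Sertoli markers hosted no circRNA, so the amount of Sertoli RNA was not measured here and its part was not tested.

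At the imprinted locus of Gnas/Nespas, where Nespas is the antisense RNA of the Gnas cluster, the sum overlapped, at 850 and 847 CPM in control against 1221, 789 and 1409 CPM in triptolide. The Gnas/Nespas sum passed when triptolide B was left out (log2 fold change 0.67, edgeR adjusted p = 0.015). Its intronic class rose from 102 and 139 counts to 293, 192 and 366 (log2 fold change 1.27, edgeR adjusted p = 0.013), while the antisense class did not pass. The intronic share was 12.5% and 15.3% in control against 25.3%, 23.0% and 25.2% in triptolide, a shift that did not pass (adjusted p = 0.23). Loci against 2 germ cell genes gave separate groups that did not pass. That against Brdt, a testis bromodomain protein, stood at 61.1 and 42.0 CPM in control against 80.2, 74.6 and 101 CPM in triptolide (adjusted p = 0.097). That against Tekt1, a tektin of flagellar microtubules, stood at 64.3 and 55.1 CPM in control against 26.4, 33.1 and 39.8 CPM in triptolide (adjusted p = 0.087). Pvt1, a neighbour of Myc, the Gm20005/Hsph1 locus, Sox2ot, the overlapping transcript of Sox2, Ftx of the X-inactivation centre and Hoxaas3 of the Hoxa cluster had overlapping groups. In Sox2ot and Ftx 1 class held 87.9% to 100% of the counts.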

How the data were processed

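Directional libraries of testis RNA depleted of ribosomal RNA were sequenced as read pairs, per the labels' protocols. The submitters' processing notes list HISAT2 2.0.1, HTSeq 0.6.1, DESeq and bedtools 2.17.0 without roles, and name hg19. Coordinates are printed as deposited. The authors deposited expected counts per lncRNA transcript, per the file headers, with its locus, class, exons and known or new status. No source used here states how reads were divided among transcripts. In the circRNA table the values deposited by the authors are a score, SRPBM rounded to whole numbers. The mRNA table and 5 other per-sample columns of the lncRNA table were not used.

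Counts were summed per locus or per class within a locus, rounded, and fitted over the whole table with edgeR 4.0.16 in R 4.3.3 (filterByExpr, TMM, quasi-likelihood F test, triptolide against control, Benjamini-Hochberg threshold 0.05). Class shares and isoform usage were tested with diffSpliceDGE. SE is the log2 fold change divided by the root of F. CPM is the count per 1000000 lncRNA counts of the library. DESeq2 1.42.0 and limma 3.58.1 were alternatives. Steps were tested on simulated data. Intervals and p-values assume independent fragments, since no molecular identifiers are given. Symbols came from the name tables (7892 of 7976 Ensembl identifiers matched).

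The members, gene lists and tests were chosen with earlier results of these data known. Named loci were the 8 of highest mean CPM, the 8 per direction of smallest p without overlap, the 8 of smallest p for class share with means of at least 10 counts in both classes, the 6 of smallest p for isoform usage, the 5 highest with 3 classes, the 5 with most transcripts, and those in the gene lists. The Mir365-1 locus and others outside that rule were chosen after their values were seen. The 18 lists cover testis cell types, other cell types, named and imprinted lncRNAs and pathways. Lists other than named lncRNAs (7 loci), imprinted, stress, axoneme and chromatin genes (1 each) matched no mixed locus.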

Additional observations from a re-analysis of the deposited data

How the results depend on the processing

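The 8 calls on locus sums that held in all 12 alternatives were 1110002L01Rik, AI480526, Adk, Ankrd9, Gm33847/Gm43640, Gpam, Igsf9b and Malat1. DESeq2 called 29 of the 45 loci and no others among mixed loci. Leaving out a library gave 19 to 51 called locus sums, 14 to 50 class units, 0 to 2 shifts of class share and 2 to 9 of isoform usage. The 0 came without control 2, where 63 loci had an unadjusted p under 0.05. Without a filter on low counts 90 class units and 2 class share shifts were called. With limma-voom there were 13 class share shifts, of which 3 were shared with edgeR's 4, and 0 isoform calls (41 at an unadjusted p under 0.05, against 6 by edgeR). The Simes combination gave 1 class share shift. Leaving out transcripts of identical counts, chosen after seeing the data, gave 45, 39, 4 and 4 calls. The cause of these changes was not tested.

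Counting only loci in which at least 2 classes each held 5% or more left 610 loci, with 9.82% of the counts in place of 14.0%. Counting only transcripts with a mean of at least 1 count left 624 loci. The antisense share was 50.3% of counts but 59.2% as the median over loci, and 50.1% to 50.4% with a library left out. Of 718 values for named loci under alternatives, 637 stayed on their side of the threshold, 77 lost and 4 gained a call. The 718 include values of named loci not called in the main fit, which cannot lose a call, so 637 is no measure of how stable calls are. No paired analysis was possible because the lncRNA columns give only 1 numbered triptolide library. Shares from FPKM were not run, since those columns were not mapped.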
